A study of Rattus norvegicus with 6 samples.

Results

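The baseline transcriptome described here comes from the 3 control libraries at 0 h, out of 6 libraries in the series. They were chosen by their sample titles, which read control and 0 h. The tissue was flexor digitorum longus, the toe flexor of the hind limb, from Sprague-Dawley rats of wild-type genotype kept on standard food and water. The other 3 libraries came from muscle 18 h after acute osteofascial compartment syndrome (ACS) was induced with a band tied around the knee, and no comparison with them is made here. The groups rest on titles because the treatment entry names ACS for the controls too. Whether the controls had a sham band, the age of the rats, and whether each library came from its own rat: none of these are given in the sources used here. The spread among the 3 libraries may therefore be technical.

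A muscle fibre is a single long cell filled with myofibrils, in which myosin motors of the thick filament pull on actin of the thin filament. Calcium released from the sarcoplasmic reticulum starts contraction by binding troponin, and a calcium pump ends it. Fast fibres carry fast isoforms of these proteins and draw on glycogen and phosphocreatine, while slow fibres carry slow isoforms and rely more on mitochondria. Capillaries, connective tissue, nerve branches and satellite cells, the stem cells of muscle, lie between the fibres and add their RNA to a whole-muscle library.

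Total RNA was depleted of ribosomal RNA and sequenced, and the deposited table gives a read count and an FPKM value (reads scaled to the length of the gene row and to the library's total) for each of 30957 gene rows. The control libraries held 18843880, 18450886 and 21003928 counts, in the order control replicates 1, 2 and 3, which is the order of every set of 3 values below. A mean of at least 1 FPKM was reached by 10962 rows. Of these rows 4209 reached 10 FPKM, 481 reached 100 FPKM and 54 reached 1000 FPKM. The counts were concentrated in few genes: the 10 most abundant rows took 26.1% ± 0.958 of the counts and the 100 most abundant 53.0% ± 0.713 (SD, n = 3). Between 72 and 82 rows made up 50% of each library, while 90% took 3135 to 3315 rows. The 95% Wilson interval of a gene group's share extended at most 0.0228 percentage points to each side of the value. Such intervals cover counting error only.

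Actin of the muscle fibre led the named nuclear genes. Acta1 (skeletal actin, ENSRNOG00000017786, chr19:56674074-56677084 in Rnor_6.0) stood at 38566, 37564 and 26488 FPKM, a mean of 34206 ± 6703 (SD, n = 3). Replicate 3 was the low library, and its value still exceeded every value of the next gene. Ckm, the muscle creatine kinase that rebuilds ATP from phosphocreatine (chr1:80321585-80331841), reached 13749, 14072 and 9966 FPKM, again lowest in replicate 3. Atp2a1, the calcium pump of fast fibres, read 15313, 12061 and 10334 FPKM. That row is only 543 bases long (chr1:197856903-197858016), so its value stands for a short stretch of the gene. Mylpf, the fast regulatory light chain of myosin, stood at 7115, 11701 and 6375 FPKM, with replicate 2 well above the other two. Mb, the oxygen store myoglobin, had 7413, 7384 and 6029 FPKM and Aldoa, the glycolytic aldolase, 7350.4, 6115 and 6476 FPKM.

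The remaining 14 of the 20 most abundant named nuclear genes ran from 6355 down to 1892 mean FPKM. Thick and thin filament genes were 7 of them: the light chain Myl1 (5950.2, 7329 and 5786 FPKM), the fast troponins Tnnc2 (5350.0, 7499.6 and 5398) and Tnnt3 (3803, 4865 and 5257), the tropomyosins Tpm2 (5001, 4986 and 4489) and Tpm1 (2174, 2447 and 2105), the heavy chain row Myh1 (3449, 2836 and 3803) and the myosin-binding protein Mybpc1 (1419, 2472 and 1785). Actn3 (2477, 3234 and 2694), the alpha-actinin of fast Z-discs, and Des (2181, 2484 and 1866), the intermediate filament desmin, tie neighbouring sarcomeres together. Pygm (3428, 3373 and 3373), which breaks down glycogen, and the enolase Eno3 (2739.8, 3275 and 3421) serve glycolysis. Pvalb (2515, 2796 and 2889), the calcium buffer of fast fibres, Car3 (1282, 3239 and 2809), the muscle carbonic anhydrase, and Slc25a4 (2071, 2227 and 1893), the ADP and ATP exchanger of mitochondria, complete the set. The order among neighbours was loose: in 16 of the 19 pairs of neighbouring genes the ranges over the 3 libraries overlapped. The place of Myh1 also rests on its row length of 19176 bases, taken up below. Pygm was the steadiest of the 20, within 3373 to 3428 FPKM, and Car3 was among the least steady, with replicate 1 below the others.

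**Figure D1:**
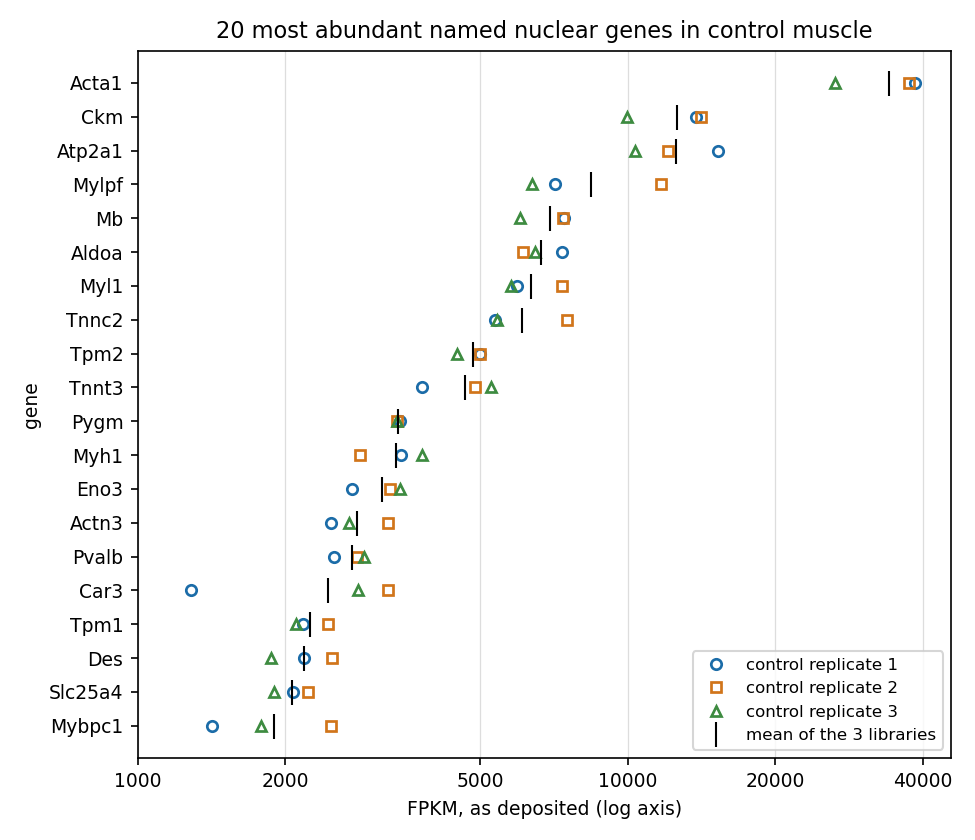
FPKM (log axis) of the 20 named nuclear genes with the highest mean in control muscle; each symbol is 1 library and the black bar is the mean of the 3. Acta1 lies apart from the rest at 26488 to 38566 FPKM, while most neighbouring genes overlap, and Car3 and Mylpf have 1 library away from the others.

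The promoters of the leading actin and creatine kinase genes are shown because these 2 genes head the named list, with the short motifs in them that are textbook elements of muscle promoters. Each sequence covers 250 bases before to 50 bases after the start of the gene, from RefSeq on GRCr8, a later rat assembly than the Rnor_6.0 build of the table. Capitals mark matches to 6 motifs. TATAAA is the core of the box that positions the start of transcription. CAGCTG is an E-box of the kind that myogenic factors bind. CATTCCT is the M-CAT element of TEAD factors. TGACGTCA is the cyclic AMP response element. The CArG box of serum response factor and the MEF2 site were searched by their usual consensus. Both strands were searched, and a TATAAA can lie inside a MEF2 match. Acta1 lies at chr19:68784145-68784444 (minus strand) and Ckm at chr1:88189211-88189510 (plus strand).
Acta1: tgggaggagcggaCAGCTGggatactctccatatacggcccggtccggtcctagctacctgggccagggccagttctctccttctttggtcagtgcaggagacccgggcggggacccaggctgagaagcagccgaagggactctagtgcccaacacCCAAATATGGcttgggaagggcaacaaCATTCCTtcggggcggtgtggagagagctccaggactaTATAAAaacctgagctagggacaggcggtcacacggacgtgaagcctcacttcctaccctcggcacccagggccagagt
Ckm: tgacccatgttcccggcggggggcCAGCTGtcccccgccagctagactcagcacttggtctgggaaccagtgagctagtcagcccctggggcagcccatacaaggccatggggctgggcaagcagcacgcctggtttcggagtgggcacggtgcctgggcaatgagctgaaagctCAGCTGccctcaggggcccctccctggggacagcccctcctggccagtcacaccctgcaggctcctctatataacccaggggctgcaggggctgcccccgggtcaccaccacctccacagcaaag
The Acta1 window held an E-box 237 bases before the start, a CArG box at 94, an M-CAT element at 67 and TATAAA at 29. The Ckm window held 2 E-boxes, at 226 and 75 bases before the start, and no exact match to the other 5. Of the 20 most abundant genes 17 had a promoter in the RefSeq table. CAGCTG was present in 41.2% of those 17, against 15.9% of 7588 genes at 1 FPKM or more and 15.1% of all 27457 promoters. TATAAA was present in 29.4%, 6.48% and 14.3% of the same sets. Of 51 myofibril genes at 1 FPKM or more 36 had a promoter. CATTCCT was in 16.7% of those 36, against 3.73% of the genes at 1 FPKM or more and 5.08% of all promoters. A MEF2 site was found in 13.9%, 1.62% and 3.37% of those sets and a CArG box in 11.1%, 1.305% and 1.64%. TGACGTCA was in none of the 36 myofibril windows, against 3.18% of the genes at 1 FPKM or more and 1.91% of all promoters. With shares that small, 36 windows are too few to read an absence as a difference. Among the 100 most abundant named nuclear genes, 71 had a promoter and 5.63% of those held TGACGTCA. A match is a run of letters and not evidence of binding.

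By counts the order differed, since long genes collect more reads. The Myh1 row took the largest share of counts, 6.61, 5.44 and 7.29% (6.45% ± 0.939), followed by Acta1 at 5.54, 5.39 and 3.80%. Next came the mitochondrial Mt-co1 at 4.11, 4.24 and 2.996% and Neb at 3.38, 3.37 and 3.81%. Neb encodes nebulin, the giant protein that runs along the thin filament, and its row is 21131 bases long. Ckm (1.81% ± 0.328), Aldoa (1.07% ± 0.102), Cmya5 (1.04% ± 0.0876), Pygm (0.977% ± 0.00907) and Mt-cox3 (0.912% ± 0.1997) were also among the 10 named rows of highest share. Cmya5 is a large protein of the fibre cytoskeleton.

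Grouped by function, genes of the myofibril took 27.1% ± 0.369 of the counts, the largest of the named groups, at 27.1, 27.5 and 26.8%. Titin enters this group only through 2 rows of 1965 and 1323 counted bases, described below. Shares and ranks by counts therefore leave out titin reads outside those rows. The mitochondrial chromosome followed with 8.17% ± 0.575, then glycolysis and glycogen enzymes (4.33% ± 0.0995), energy buffering and oxygen genes (3.12% ± 0.411), calcium handling (2.77% ± 0.187) and nuclear genes of mitochondrial metabolism (2.73% ± 0.0419). The 174 nuclear rows of these 5 muscle groups, with the mitochondrial chromosome left out, held 40.4%, 40.8% and 39.0% of the counts. Ribosomal protein genes held 0.647% ± 0.0725, with 72 of 95 rows at 1 FPKM or more. The listed markers of non-muscle cells other than haemoglobin summed to 0.315% ± 0.0456. Rows in none of the groups held 48.6% ± 0.644, spread over 26451 rows. The SD over libraries was under 1 percentage point for every group.

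**Figure D2:**
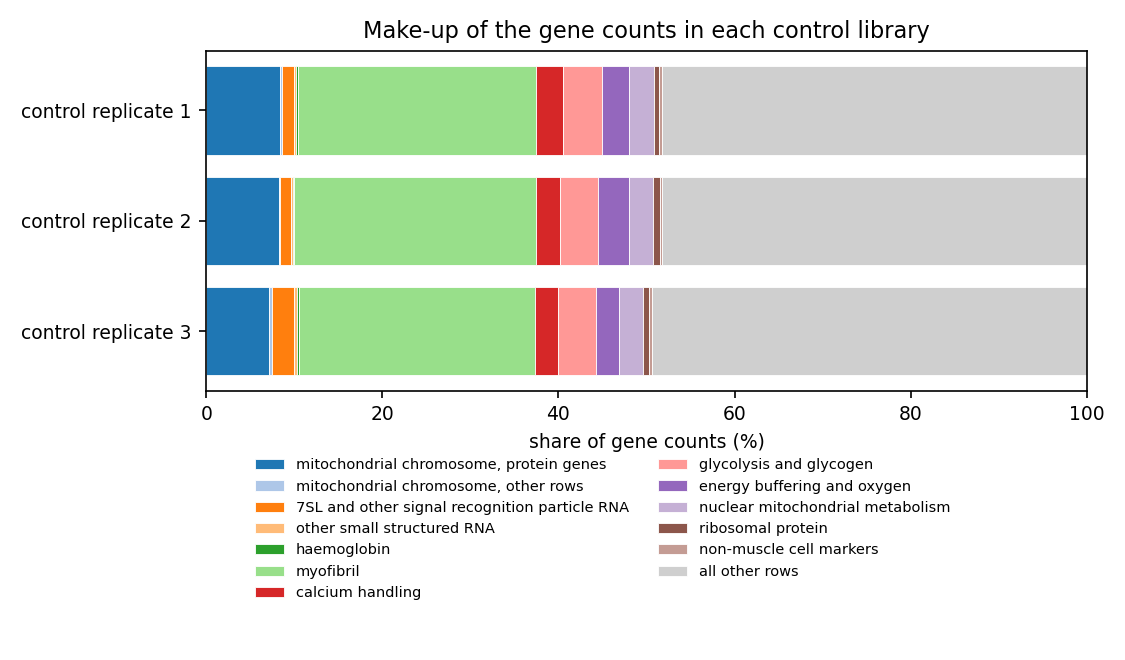
Share of gene counts (percent) held by each gene group in each of the 3 control libraries, stacked to the whole library. The myofibril group is 26.8% to 27.5% in each library, and the segment of 7SL and other signal recognition particle RNA is widest in replicate 3, at 2.41%.

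Because the RNA was not selected by its tail, short structured RNAs were counted too. One copy of 7SL, the RNA core of the signal recognition particle that guides new secreted proteins to the endoplasmic reticulum, was the highest row of all (ENSRNOG00000061096, chr6:91456908-91457207). It read 35642, 33324 and 66487 FPKM. A second copy of the same length (chr6:91680229-91680528) read 8208, 7885 and 11060 FPKM, and reads of such copies may not be told apart. All rows of the signal recognition particle together took 1.33, 1.26 and 2.41% of counts, highest in replicate 3. RNase MRP, which processes ribosomal RNA, took 0.0773%, 0.0487% and 0.166%. The 7SK RNA, which restrains transcription elongation, took 0.0802%, 0.1002% and 0.113%. Replicate 3 was the highest library for each of these 3 families.

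Myosin heavy chains set the speed of a fibre, and the table allows only part of that question to be answered. RefSeq lists Myh2, Myh1 and Myh4, the heavy chains of fast types IIA, IIX and IIB, between Myh3 and Myh8, whereas the table has 1 named row there. That row, Myh1, spans 134410 bases (chr10:53713938-53848347) with a counted length of 19176 bases, against 5923 bases for Myh7. Types IIA, IIX and IIB could therefore not be told apart. Myh7, the slow heavy chain, read 404, 399 and 348 FPKM, lowest in replicate 3. Its share of summed heavy chain FPKM was 10.4%, 12.2% and 8.33%, a mean of 10.3% ± 1.93. By counts the share was 3.46% ± 0.701, since the Myh1 row is 3.24 times as long, so the share depends on the length assumed for that row. If the row pools several heavy chains, its FPKM lies below their sum. The 10.3% would then be too high.

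The other heavy chains were scarce. Myh3, the embryonic form, had 21.8, 13.0 and 15.8 FPKM, and Myh8, the perinatal form, 2.62, 0.440 and 0.494 FPKM. The Myh8 row overlaps the Myh1 row on the chromosome. Myh6, the atrial form, had 25.9, 15.1 and 6.05 FPKM, highest in replicate 1 and lowest in replicate 3. Myh7b, a minor slow-type heavy chain, read 4.35, 7.05 and 3.93 FPKM and Myh15 0.305, 0 and 0.0994 FPKM.

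Other proteins of the fibre also come as fast and slow paralogs, each with a row of its own. In 8 of 11 pairs the fast member made up over 90% of the summed FPKM in all 3 libraries, and the median over pairs was 95.8%. The fast regulatory light chain Mylpf had 99.3, 99.6 and 99.2% against its slow partner Myl2, which read 50.1, 42.3 and 50.7 FPKM. The essential light chain Myl1 had 93.0, 94.1 and 95.8% against Myl3 (451, 458 and 254 FPKM). Fast troponin C (Tnnc2) had 97.3, 97.3 and 97.1% against Tnnc1, and fast troponin T (Tnnt3) 95.9, 95.5 and 96.5% against Tnnt1. Troponin I leaned fast by less, with 84.1, 85.1 and 88.6% for Tnni2, and Tnni1 at 188, 231 and 127 FPKM. By counts that share was 91.2% ± 1.56, as the Tnni2 row is 3130 bases long against 1842 for Tnni1.

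The fast calsequestrin Casq1, which stores calcium in the reticulum, had 98.6, 98.1 and 98.4% against Casq2. The pump pair stood at 98.9, 98.9 and 98.9% for Atp2a1 against Atp2a2 (169.8, 130.3 and 115 FPKM), and at 87.4% ± 0.169 by counts because the Atp2a1 row is so short. Tpm1 had 95.9, 95.5 and 96.0% against Tpm3. Of the Z-disc genes, Myoz1 had 93.3, 97.2 and 91.1% against Myoz2. Actn3 had 72.3, 81.7 and 75.8% against Actn2 (951, 724 and 862 FPKM), which fibres of every type are known to carry. The exception was myosin-binding protein C: the fast Mybpc2 (1467, 1739.9 and 1501 FPKM) made up 50.8, 41.3 and 45.7%, so the slow-type gene Mybpc1 was slightly below it in replicate 1 and above it in replicates 2 and 3. Mybpc1 is named for slow muscle but is known to be made in fast fibres as well.

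**Figure D3:**
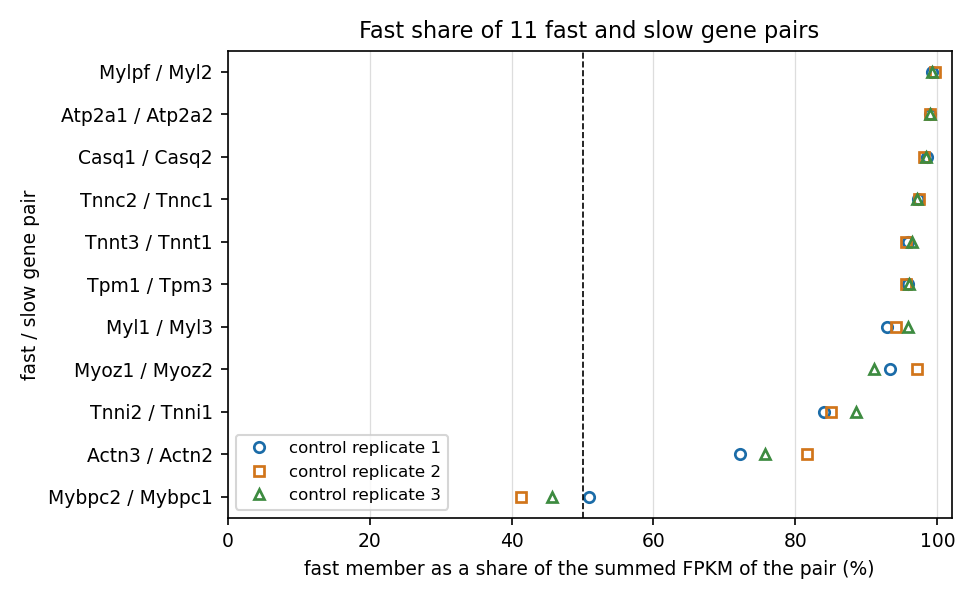
Fast member as a share of the summed FPKM of each of 11 fast and slow gene pairs (percent), 1 symbol per control library, with the dashed line at equal levels. 10 pairs lie right of the line in every library and Mybpc2 against Mybpc1 lies across it.

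Most other listed structural genes of the sarcomere were detected. Thin filament genes reached 1 FPKM in 15 of 17 rows, Z-disc and M-band genes in 18 of 19, and myosin light chains and binding proteins in 10 of 11. Tmod4, which caps the pointed end of thin filaments in fast fibres, read 497, 1200.4 and 424 FPKM, with replicate 2 more than 2-fold above both others. Cryab, a small heat shock protein of the Z-disc, read 787, 498 and 632 FPKM, and Myom2, a fast M-band protein, 532, 470.2 and 501. Titin, the spring of the sarcomere, has no row of its own name. There are 2 rows with clone-based names where RefSeq places Ttn, between Plekha3 and Ccdc141, at chr3:63820757-63836017 (3337, 3616 and 2746 FPKM) and chr3:63566184-63568464 (2352, 2778 and 2557 FPKM), and they cover 1965 and 1323 counted bases. Lmod2 and Myot, both sarcomere genes, were listed at 0 in all 3 libraries. So was Myh9, a non-muscle myosin that most cells make, so a row at 0 in this table need not mean that the gene was silent. The Z-disc gene Tcap read 2.86, 2.92 and 1.58 FPKM, and Hspa8 and Ppia had means of 2.62 and 0.256 FPKM. Such low rows may understate their genes too. By counting error alone, 0 counts allow up to 0.163 CPM (3 counts in the smallest library).

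Calcium handling genes were all detected: 23 of 23 listed rows reached 1 FPKM. Ryr1, the calcium release channel, read 605, 542 and 521 FPKM and Cacna1s, the voltage sensor that opens it, 349, 259 and 321 FPKM. Casq1 read 1081, 1134 and 1194 FPKM. Triadin (Trdn), which anchors calsequestrin to the channel, read 107, 214 and 210.1 FPKM, with replicate 1 at the low end. Junctophilin 2 (Jph2), which holds the tubule to the reticulum, went the other way at 201, 122 and 98.6 FPKM. The small pump inhibitors Sln (6.05, 4.91 and 3.99 FPKM) and Pln (1.72, 2.45 and 2.01 FPKM), known from slow and cardiac muscle, were low.

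Glycolysis and glycogen enzymes were all detected, with 22 of 22 listed genes at 1 FPKM or more. Their summed level was 22507, 22081 and 21554 FPKM, a narrow range. After Aldoa, Pygm and Eno3 came Gapdh (1822, 1499 and 1635 FPKM) and the muscle phosphoglycerate mutase Pgam2 (1591, 1901 and 1427 FPKM). There are 3 further rows described as similar to Gapdh, namely LOC685186 (1329, 1143 and 1230 FPKM), RGD1565368 (1163, 829 and 568) and RGD1564688 (810, 638 and 749). A row described as like triosephosphate isomerase, LOC100911515 (742, 922 and 800), stood above Tpi1 itself (265, 318 and 349). Levels of genes with such near copies are uncertain, since the counting rule is unknown. Pfkm, the phosphofructokinase that commits sugar to glycolysis, read 956, 913 and 982 FPKM, Ldha, the muscle lactate dehydrogenase, 729.8, 857 and 632, and Gys1, the glycogen synthase, 171, 122 and 141.

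Genes classed as muscle forms were compared with a relative in 18 pairs, chosen after values had been seen. The muscle form exceeded 50% of the summed FPKM in all libraries in 18 and 90% in 13. The choice of pairs favoured such counts, so they are no test of muscle identity. Ckm exceeded Ckb (8.73, 8.92 and 6.33 FPKM) in every library, at 99.9, 99.9 and 99.9% of the sum. Eno3 made up 98.9% ± 0.206 against Eno1, Cox6a2 98.2% ± 0.207 against Cox6a1, and the insulin-responsive glucose transporter Slc2a4 98.7% ± 0.855 against Slc2a1. Among the translation genes, Rpl3l, a muscle ribosomal protein, made up 92.4% ± 2.91 against Rpl3, and Eef1a2 90.1% ± 0.821 against Eef1a1. The relative held most in the lactate transporters (Slc16a3 77.9% ± 2.63 against Slc16a1), the cofilins (Cfl2 84.0% ± 1.47 against Cfl1) and the lactate dehydrogenases (Ldha 87.3% ± 0.809 against Ldhb).

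Oxidative genes were present at high levels as well. Nuclear subunits of the respiratory chain reached 1 FPKM in 24 of 24 rows, with a sum of 12864, 13364 and 12922 FPKM, citrate cycle genes in 18 of 18 and fatty acid genes in 20 of 20. Cox6a2, a muscle subunit of cytochrome oxidase, read 1815, 1792 and 1736 FPKM and Atp5b, a subunit of ATP synthase, 1489, 1738 and 1528 FPKM. Cox6c (764, 1088 and 908) and Atp5a1 (1142, 982 and 1115) followed. Mdh2 (557, 453 and 422) and Idh2 (398, 376 and 269) led the citrate cycle list. Pdk4, the kinase that inhibits pyruvate dehydrogenase in fasting, led the fatty acid list at 428, 318 and 476 FPKM, ahead of the fatty acid carrier Fabp3 (221, 239 and 321) and the dehydrogenases Acadm (183, 197 and 229) and Acadl (166, 185 and 227). Fabp3, Acadm, Acadl and Hadhb were each highest in replicate 3, and 14 of the 20 fatty acid genes were. By comparison 3894 of all 11886 rows at 1 CPM or more were highest there. Other metabolic lists did not share that order. Replicate 3 was lowest in 14 of 24 respiratory chain genes, 12 of 22 glycolysis and glycogen genes and 9 of 11 energy buffering and oxygen genes. It was lowest in 8 of 18 citrate cycle genes and in 4170 of all 11886 rows.

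All 13 protein genes of the mitochondrial chromosome were detected, and their levels differed widely although they are copied from shared transcripts. Mt-co1, the catalytic subunit of cytochrome oxidase, was highest at 26588, 27465 and 19392 FPKM, and Mt-cox3 followed at 12167, 8859 and 13868 FPKM. They differed in order: in replicate 3 Mt-co1 was lowest and Mt-cox3 highest. Mt-co2 read 6672, 8048 and 7388 FPKM, Mt-nd1 6755, 5584 and 5906, Mt-cytb 5896, 5089.8 and 5569, Mt-nd4l 4394, 5062 and 3532 and Mt-nd2 3991, 4719.8 and 3442. Mt-atp8 read 3036, 3398 and 3007 FPKM, Mt-nd5 3245, 3298 and 2459 and Mt-atp6 1932, 1774 and 2259.6. The lowest were Mt-nd6 (1177, 1136 and 1613), the one protein gene on the opposite strand, Mt-nd4 (876, 935 and 775) and Mt-nd3 (461, 633 and 995). Mt-nd4 and Mt-nd4l share an RNA and overlap, as do Mt-atp6 and Mt-atp8, so their separate values rest on how overlapping reads were assigned. The highest other mitochondrial row (chrMT:1094-2664), which has a clone-based name, read 1422, 757 and 2234 FPKM.

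Regulators of muscle identity were found at modest levels. Of the listed transcription factors 21 of 22 reached 1 FPKM. Tead1, which binds M-CAT elements, was highest at 85.7, 72.0 and 61.3 FPKM, and the leading members included Mef2d (82.7, 60.3 and 54.0), Mef2c (49.1, 64.6 and 45.3) and Tbx15 (46.4, 55.0 and 40.02), a factor of glycolytic fibres. Of the myogenic factors, Myf6 (42.6, 46.8 and 50.8 FPKM) and Myod1 (23.0, 28.5 and 30.8) were well above Myog (5.17, 4.44 and 3.71) and Myf5 (0.284, 0.554 and 0.718). Prox1, which supports the slow programme, was low at 1.82, 1.27 and 1.32 FPKM.

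Genes of the nerve-muscle synapse, a structure confined to a small part of each fibre, gave a low signal. Of those listed 11 of 12 reached 1 FPKM, with a sum of 94.3, 87.3 and 82.9 FPKM. The acetylcholine receptor subunit Chrnb1 read 27.6, 27.2 and 34.8 FPKM, the receptor-clustering adaptor Dok7 10.7, 10.9 and 11.4, the enzyme Ache 11.98, 9.57 and 7.24, the adult subunit Chrne 7.22, 9.32 and 6.13 and the agrin receptor Lrp4 8.43, 5.12 and 7.60. Dystrophin complex and basement membrane genes were all detected (16 of 16), with Sgca (94.2, 90.1 and 66.8 FPKM), Sgcb (49.6, 62.2 and 68.8) and Dag1 (52.6, 45.2 and 65.1) among the highest, while Dmd itself read 33.0, 46.7 and 48.9 FPKM.

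Growth and atrophy genes were likewise all detected (14 of 14). The ubiquitin ligases Fbxo32 (135, 138 and 176 FPKM) and Trim63 (105, 119.7 and 113 FPKM), which mark muscle protein breakdown, were the highest, followed by Murc (76.1, 81.2 and 98.4), the glucocorticoid receptor Nr3c1 (20.8, 28.3 and 24.8) and Klf15 (13.8, 14.2 and 26.5). Mstn, the growth inhibitor myostatin, read 4.64, 10.2 and 16.5 FPKM, lowest in replicate 1. Of the limb position genes 3 of 13 reached 1 FPKM: Hoxc10 read 22.2, 15.5 and 20.4 FPKM and Hoxc9 2.61, 2.01 and 3.12, and the forelimb factor Tbx5 was listed at 0. Pitx1, the hind-limb selector, read 5.56, 0.0241 and 2.07 FPKM and so was close to 0 in replicate 2. Clock genes reached 1 FPKM in 16 of 16 rows. Bhlhe40 (73.4, 87.7 and 93.1 FPKM), Nr1d1 (57.9, 55.9 and 105), Per1 (23.2, 28.1 and 31.8), Nr1d2 (18.0, 27.5 and 26.8) and Tef (15.95, 22.9 and 25.2) were the highest, and Dbp, a direct clock output, ran from 4.55 in replicate 1 through 13.6 to 33.1 in replicate 3. Replicate 3 was highest in 10 of the 16, against 3894 of all 11886 rows at 1 CPM or more. The hour of sampling is unknown.

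Cells other than muscle fibres left a small and uneven signal. In bulk tissue fewer cells of a type and less RNA per cell cannot be told apart, so the sums below are RNA levels and not cell numbers. Haemoglobin and red cell genes gave the largest sum, 3601, 1313 and 3366 FPKM over 6 rows, with Hba1 at 1916, 720.1 and 1995 FPKM, Hba2 at 1338, 433 and 911 and Hbb at 301, 139.6 and 409.6. Replicate 2 was the lowest library in all 6, against 3946 of all 11886 rows at 1 CPM or more. The haemoglobin alpha rows are near copies, so their split is uncertain.

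Vessel and connective tissue markers came next. Fibroblast markers summed to 283, 262 and 279 FPKM (9 of 10 rows at 1 FPKM), led by the matrix proteoglycan Dcn (64.2, 139 and 85.2) and the collagens Col3a1 (94.7, 71.4 and 75.7) and Col1a1 (95.4, 21.5 and 88.8). Dcn and Col1a1 ran in opposite order, with replicate 2 highest for Dcn and lowest for Col1a1. Col1a2, the partner chain of Col1a1 in the type I fibre, was listed at 0 in all 3 libraries although Col1a1 was not. Smooth muscle and pericyte markers summed to 253, 239.7 and 268 FPKM, led by Rgs5 (72.8, 77.9 and 75.5), Abcc9 (57.5, 51.5 and 55.3), Tagln (32.7, 36.4 and 34.8) and Acta2 (31.9, 29.8 and 38.1). Endothelial markers summed to 143, 104 and 132 FPKM, all 11 of 11 at 1 FPKM or more, with Cdh5 (23.3, 15.9 and 19.4), Egfl7 (18.4, 17.6 and 20.4) and Flt1 (15.0, 9.96 and 18.6) highest.

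Tendon markers summed to 72.8, 48.7 and 105 FPKM, most of it Thbs4 (41.4, 27.9 and 64.4) and Fmod (14.5, 8.59 and 23.4), and the defining Tnmd was at 1.95, 0.772 and 1.68 FPKM. Schwann cell markers, from the sheath of nerve branches, summed to 47.3, 64.3 and 61.4 FPKM, whereas neuron markers summed to 0.821, 1.47 and 0.652 FPKM. Without its most abundant marker the mean Schwann cell sum fell from 57.7 to 25.8 FPKM. Satellite cell markers summed to 32.1, 30.8 and 45.6 FPKM, but mostly from Sdc4 (16.3, 14.3 and 28.3) and Cdh15 (9.43, 8.18 and 10.8), and the defining Pax7 was at 0.983, 1.04 and 1.86 FPKM. Adipocyte markers summed to 56.3, 85.8 and 111 FPKM, of which Fabp4, a gene that endothelium also expresses, made up 50.6, 59.8 and 105. Adipoq, the defining hormone, was at 0.442, 3.11 and 0.524 FPKM, and Cfd at 4.71, 20.1 and 4.68, both highest in replicate 2.

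Immune markers were low. Macrophage markers summed to 37.0, 58.6 and 49.1 FPKM, led by Lyz2 (20.3, 34.5 and 23.0) and the complement gene C1qc (6.13, 8.06 and 7.86). Neutrophil markers summed to 1.85, 2.21 and 8.56 FPKM, with S100a9 at 0.603, 0.821 and 3.79 and S100a8 at 0.563, 1.006 and 3.54 highest in replicate 3 and Camp and Elane at 0. Only 1 of these 9 genes reached a mean of 1 CPM, so their order over libraries rests on few reads. Lymphocyte markers summed to 3.50, 4.31 and 2.72 FPKM, most of it Cd4 (2.49, 3.25 and 2.26), which macrophages of the rat also carry, and Cd3d and Cd3g were at 0. Mast cell markers summed to 2.31, 4.49 and 1.55 FPKM. Markers of other tissues had low sums: keratinocyte markers summed to 1.28, 1.03 and 0.896 FPKM, cartilage and bone markers to 3.08, 0.112 and 1.74, liver markers to 0.239, 0 and 0.161. The heart list summed to 26.9, 18.0 and 7.10 FPKM, nearly all of it Myh6, while Nppa, Nppb and Myl7 were at 0. Of 10 long non-coding RNAs listed only 2 had a row, Snhg11 and Miat, and both were at 0. The Y-linked genes Ddx3y (25.6, 33.5 and 38.5 FPKM), Eif2s3y (15.0, 18.3 and 20.2), Kdm5d (4.49, 6.62 and 5.41) and Uty (1.40, 1.93 and 1.71) were present in every library.

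**Figure D4:**
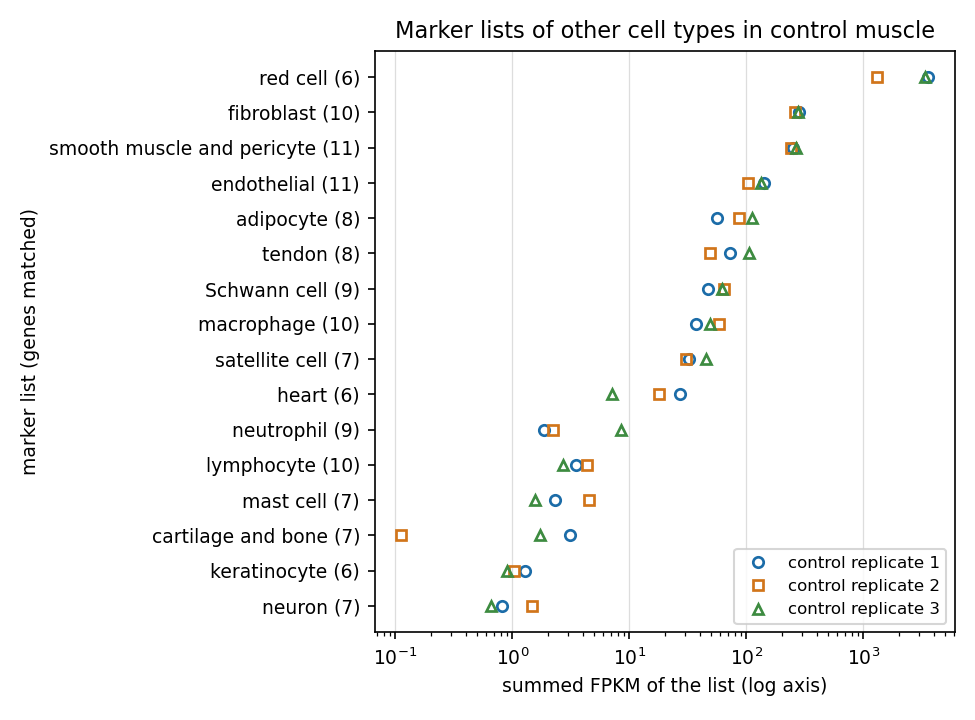
Summed FPKM (log axis) of the marker lists of other cell types in each control library, with the number of genes matched in brackets; the liver list, which was 0 in replicate 2, is not drawn. Red cell, fibroblast, smooth muscle and endothelial lists lead, replicate 2 is lowest for the red cell list, and replicate 3 is highest for the neutrophil list. Only 1 of the 9 neutrophil genes reached a mean of 1 CPM.

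The 3 genes in the title of the series differed widely in level. Gpx4, the peroxidase that protects membranes from lipid peroxides, stood at 207, 268 and 182 FPKM, Acsl4, which activates long polyunsaturated fatty acids, at 6.002, 8.18 and 9.76 FPKM, and Ptgs2, the inducible cyclooxygenase, at 0.473, 0.421 and 0.120 FPKM.

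Agreement among the 3 libraries was measured on counts scaled by TMM, edgeR's correction for library make-up, as CPM (counts scaled to a common library size). Over 7114 rows with a mean of at least 10 CPM the median coefficient of variation was 14.4%, and edgeR's common biological coefficient of variation was 20.5%. The median was about the same at every level: 14.4% in 5895 rows at 10 to 100 CPM, 14.2% in 1119 rows at 100 to 1000 CPM and 14.6% in 100 rows above. Counting error alone would give 4.44%, 1.77% and 0.492% there, so the spread exceeds the counting error throughout. Of the 6719 rows with a gene symbol 1962 varied by under 10% and 108 by over 50%. As a check for duplicate libraries, the counts of each pair were compared. The chi-square per degree of freedom was 38.2 to 65.0, so none were counted as 1 sample, and this covers counting error only.

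Replicate 3 stood apart the most. Its label, Control_ji4, is of another series than Control_A1 and Control_C1 of replicates 1 and 2 and shares its letters with the ACS library ACS_ji1. What these codes stand for is unknown, and with 1 control library of that series the code and the library cannot be told apart. Rows at least 2-fold above both other libraries numbered 19 in replicate 1, 17 in replicate 2 and 38 in replicate 3, and rows at least 2-fold below both numbered 11, 28 and 59. Replicates 1 and 2 differed 2-fold in 1.60% of the 7114 rows, replicates 1 and 3 in 2.76%, and replicates 2 and 3 in 3.16%. The 10 steadiest genes relative to the trend were Kidins220, Paip1, Prkrir, Slc8a3, Dnajb12, Abcf2, Oxr1, Samm50, Zfhx4 and Zfp746, but 98 genes lay within 2% of the lowest ratio that the estimate returned, so the order among them is arbitrary. Kidins220, for example, read 89.9, 91.7 and 90.9 CPM.

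Immediate early genes, which are switched on within minutes of a stimulus, were prominent among the least steady genes. The 10 with the largest variance relative to the trend at their level were Adgrb2, Atf3, Fosb, Fos, Nr4a2, Nr4a3, Ostn, Otud1, Ddah1 and Ankrd2. Fos (a subunit of the AP-1 transcription factor, chr6:109300433-109303299) read 72.8, 246 and 4.17 CPM, so replicate 2 was highest and replicate 3 lowest. Atf3, a stress-induced factor, read 3.58, 135 and 6.41 CPM and was high in replicate 2 alone. Nr4a3, an orphan nuclear receptor induced by exercise, read 83.1, 138 and 3.66 CPM, low in replicate 3 alone. Adgrb2, an adhesion receptor, read 0.660, 56.1 and 0.412 CPM, from 12, 1032 and 9 counts. Ostn, the secreted peptide osteocrin, read 10.3, 84.9 and 13.5 CPM, again high in replicate 2.

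The list of early response and heat shock genes was counted by library. Of its 23 members at 1 CPM or more 15 were highest in replicate 2 and 16 lowest in replicate 3, against 3962 and 4170 of all 11886 rows. Both held for 13 of the 23 and for 2144 of all rows. The median coefficient of variation was 65.9% against 16.7% over all those rows. Relative to the mean of the 3 libraries the list's median log2 level was 0.08 in replicate 1, 0.36 in replicate 2 and -0.70 in replicate 3. Egr1 read 81.4, 113 and 13.1 CPM, Junb 50.2, 83.0 and 9.71, Btg2 93.9, 237 and 36.7 and Dusp1 269, 313 and 100.3. Jun (259.7, 339 and 226 CPM) and Hspb1 (247, 265 and 283 CPM), the most abundant heat shock member, varied less. In 10 further immediate early genes, listed after values were seen, replicate 3 was lowest in 10. Since they were listed with their values known, that count is no separate support.

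Promoters of 2 of these genes are shown because both genes were highest in replicate 2 and lowest in replicate 3 and both windows hold the cyclic AMP response element. Picked on both traits, the 2 genes cannot show a link between the element and that order. Fosb, Junb and Egr1 had the same order, and their windows held no TGACGTCA. Btg2, an inhibitor of cell division, lies at chr13:48087641-48087940 (minus strand) and Dusp1, a phosphatase that ends MAP kinase signals, at chr10:17184603-17184902 (plus strand), from RefSeq on GRCr8, with the element in capitals.
Btg2: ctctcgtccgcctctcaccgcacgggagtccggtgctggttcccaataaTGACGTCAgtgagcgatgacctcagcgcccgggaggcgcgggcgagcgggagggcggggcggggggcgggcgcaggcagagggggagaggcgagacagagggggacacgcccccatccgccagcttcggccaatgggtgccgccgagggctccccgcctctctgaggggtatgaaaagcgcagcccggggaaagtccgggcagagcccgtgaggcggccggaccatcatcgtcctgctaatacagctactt
Dusp1: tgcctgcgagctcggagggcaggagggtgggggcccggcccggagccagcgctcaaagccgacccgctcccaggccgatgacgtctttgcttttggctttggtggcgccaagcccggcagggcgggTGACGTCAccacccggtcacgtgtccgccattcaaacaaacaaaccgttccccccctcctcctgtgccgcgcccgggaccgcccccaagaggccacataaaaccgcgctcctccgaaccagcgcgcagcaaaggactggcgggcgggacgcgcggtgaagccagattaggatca
The element lay 201 bases before the start in Btg2 and 124 before it in Dusp1. Of 18 listed early response and heat shock genes with a RefSeq promoter 3 held TGACGTCA and 3 a CArG box, or 16.7% each. The values were 3.18% and 1.305% in the 7588 genes at 1 FPKM or more and 1.91% and 1.64% in all promoters. The 18 were not filtered by level. Ier2, which held TGACGTCA, has no gene row here, and Hspa1a was listed at 0. Egr1, whose window is not shown, held 2 CArG boxes. These are descriptions of the windows, and no binding was measured.

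Each library also had genes of its own. Replicate 1 was the high library for Sh2b2 (36.7, 7.77 and 6.41 CPM), Cyp26b1 (30.8, 8.15 and 6.96), Ddah1 (33.0, 3.32 and 9.75) and Tbx1 (104, 22.5 and 37.3), and then for Sbk2, Tigd4, Abcc8, Sema7a and Efr3b. It was the low library for Cish (7.43, 27.9 and 40.8 CPM), Zic1 (3.19, 21.8 and 10.9), Dbp (15.5, 44.7 and 104), Scamp1 (10.1, 29.8 and 29.0) and Zfp612 (22.2, 56.1 and 49.1), and then for Mstn, Pdlim3, Car3, Sult1a1 and Hmgn3. Tbx1, Zic1 and Barx2 are developmental transcription factors that mark position or muscle group, and they did not follow one order: Tbx1 was highest in replicate 1, Zic1 and Barx2 in replicate 2. Of 12 measured members of a list of such factors, drawn up after values were seen, 7 were highest in replicate 1, 5 in replicate 2 and 0 in replicate 3. That list was made with the values known, so its counts are no separate support. Ribosomal protein genes were seldom highest in replicate 1, at 1 of 66, against 29 in replicate 2 and 36 in replicate 3. Over all 11886 rows at 1 CPM or more the same split was 4030, 3962 and 3894.

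Replicate 2 was the high library for Adgrb2, Atf3, Ostn, Fosb and Fos, and then for Rgs2 (13.3, 42.5 and 5.18 CPM), F3 (6.27, 22.3 and 7.01), Otud1 and Barx2. Its low genes included 5 collagens: Ankrd2 (72.0, 9.08 and 97.1 CPM), Col11a1 (13.3, 2.61 and 15.9), Col1a1 (576, 126 and 498), Col16a1 (14.9, 3.53 and 13.4), Nckap5l (21.7, 4.62 and 15.1), Tpx2 (59.9, 12.6 and 37.6), Ddah1, Hba1 (1105, 401 and 1067), Col22a1 (35.9, 8.26 and 22.6) and Col4a2 (115, 47.2 and 137). In a list of 19 collagen and matrix genes, drawn up after these values were seen, replicate 2 was lowest in 18. Of all 11886 rows at 1 CPM or more, 3946 were lowest there. Since the values were known when the list was made, its count is no separate support.

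Replicate 3 was the high library for Cep295 (4.68, 6.74 and 25.4 CPM), Ddit4 (13.4, 12.7 and 48.2), Fkbp5 (34.2, 23.4 and 119), Arrdc2 (17.2, 11.6 and 57.6) and Atp5i (36.1, 28.8 and 105), and then for Ankrd1 (13.8, 7.01 and 40.1), Cdkn1a (16.5, 12.1 and 47.0), Csrp3 (160.1, 79.1 and 441), Mical2 and Tob2. Fkbp5 and Ddit4 are known glucocorticoid-induced genes, and Ankrd1 and Csrp3 are genes of stretched muscle. In a list of 18 glucocorticoid and fasting responsive genes, also drawn up after the values were seen, replicate 3 was highest in 15. Glul, the most abundant of them, read 855, 935 and 1916 CPM. Replicate 3 was also highest in 7 of 11 mechanical stress genes listed in the same way. Of all 11886 rows at 1 CPM or more, 3894 were highest in replicate 3. Both lists were made with the values known, so their counts are no separate support. The low genes of replicate 3 were Nr4a3, Fos, Nr4a2, Fosb, Aqp4 (214, 248 and 27.5 CPM), Cyr61 (168, 153 and 22.0), Egr1, Slc47a1, Junb and Arc. Aqp4, the water channel of fast fibre membranes, was low in replicate 3 alone. What lies behind these differences was not tested, and 3 libraries of 1 group allow no test of it.

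**Figure D5:**
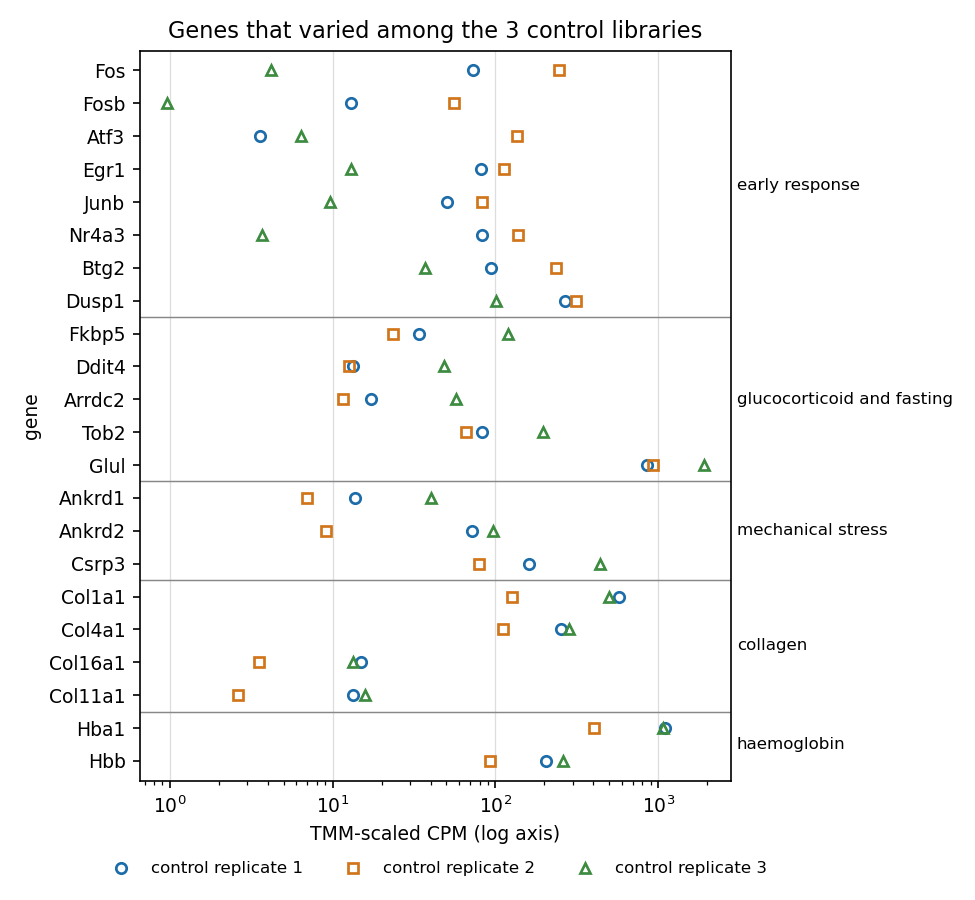
TMM-scaled CPM (log axis) in each control library for 22 genes that varied, grouped as early response, glucocorticoid and fasting, mechanical stress, collagen and haemoglobin genes. Replicate 3 is low for most early response genes and high for the glucocorticoid group, and replicate 2 is low for collagens, haemoglobins and Ankrd2.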

How the data were processed

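Counts and FPKM were used as deposited for the 3 control libraries, grouped by sample title. The RNA was rRNA-depleted, per the labels' protocols. HISAT2 2.0.4, StringTie 1.3.0 and Rnor_6.0 come from the submitters' processing notes. Not given in the sources used here: counting tool, strand setting and treatment of multiply matching reads, so antisense, overlapping and near-identical genes may not be told apart. The authors' FPKM equalled the deposited count divided by 1 length per row and the column total in all 14704 rows with counts in every control library, to within 0.1%; those lengths are used as row lengths.

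Shares are of all gene counts. FPKM served for levels between genes, with the SD over 3 libraries. Library totals lay between 18450886 and 21003928. TMM-scaled CPM and dispersions came from edgeR 4.0.16 (R 4.3.3, intercept only, rows of mean 10 CPM or more, tagwise dispersion without a prior), tested on simulated data, and DESeq2 1.42.0 gave alternative size factors. Figures used matplotlib 3.10.9. There is 1 group, so no test was made and no p-value is given.

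The libraries, 36 gene lists (463 entries, 434 matched by symbol, the row with most counts taken where a symbol had several) and measures of spread were chosen with earlier results of these data known; 5 further lists and the 18 isoform pairs were added after values were seen. Genes named are the 20 of highest FPKM, the 10 of highest count share, up to 5 leading and all defining members of each list, the 10 most and least variable, and the 10 highest and lowest in each library, with unnamed rows left out. Some genes that this rule names are not reported here. Genes outside that rule (Tmod4, Myom2, Trdn, Jph2, Sln, Pln, Pfkm, Ldha, Gys1, Myf6, Myod1, Myog, Prox1, Dmd, Mstn, Dbp, Jun and gene copies) were chosen after their values were seen. So were Tcap, Hspa8 and Ppia. RefSeq promoters and gene order (GRCr8) were matched by symbol.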

Additional observations from a re-analysis of the deposited data

How the results depend on the processing

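Measured as a share of summed FPKM in place of counts, the 10 most abundant rows rose from 26.1% to 32.5%, the 100 most abundant from 53.0% to 60.9% and the mitochondrial chromosome from 8.17% to 14.6%, while the muscle groups together fell from 40.1% to 33.8%. Without the mitochondrial chromosome in the total, the 100 most abundant rows held 50.04% and the muscle groups 43.7%. The Myh7 share was 10.3% by FPKM and 3.46% by counts, which is the same as reading every heavy chain row at the length of Myh7, a setting added after the data were seen. The median fast share over pairs was 95.8% by FPKM and 95.5% by counts. The number of rows detected was 14982 at a mean of 0.1 FPKM, 10227 at 1 FPKM in every library and 12177 at 10 counts in every library, against 10962. The median coefficient of variation was 16.7% over rows of mean 1 CPM or more and 14.0% over rows of mean 50 CPM or more, against 14.4%; library totals, DESeq2 size factors and FPKM gave 14.5%, 14.3% and 14.5%, and 14.4% was found without small structured RNA, also added after the data were seen. Leaving out 1 library gave 11.4% to 12.02%, since 2 values spread less than 3 by construction. Means over libraries cannot move by more than 1 SD when 1 of 3 is left out, so such values say nothing about stability. Of 104 values of single genes, pairs and lists under the settings that keep all libraries, 46 lay within 1 SD. No paired analysis was possible because there is 1 group and no test. What is shown is limited by 3 libraries of unstated origin, a merged fast heavy chain row and short rows (Atp2a1, titin). Rows listed at or near 0 and an unknown counting rule limit it further.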
